A study of Mus musculus with 4 samples.

Results

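The 53 protein-coding mouse genes whose RefSeq symbol begins with Ddx or Dhx and a number were examined, out of 21900 protein-coding genes. They encode the DEAD and DEAH box RNA helicases, named after the residues of a motif that binds and hydrolyses ATP, although Ddx11, chosen by its symbol like the rest, is a DNA helicase. The data are H3K79me2 ChIP-seq peaks from bone marrow-derived dendritic cells of C57BL/6J mice, cultured antigen-presenting cells. One group received PBS, with no duration in the labels, and the other received 18 mM lysine for 6 h. Each condition had 1 H3K79me2 library, whose broad peaks were analysed, and 1 input library, not analysed here. No genotype or genetic change is given in the labels, and nothing in them says how many animals or cultures a library stands for. With 1 library per condition no difference has a replicate check, no test was made, and every value describes these libraries.

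DEAD box proteins pry apart short RNA duplexes or strip proteins from RNA, and DEAH box proteins move along RNA strands, both with energy from ATP. The spliceosome depends on a series of them, ribosome assembly in the nucleolus on another, and RIG-I-like receptors use a related helicase core to detect viral RNA in the cytosol. H3K79me2, the dimethylated form of lysine 79 of histone H3, is deposited by the methyltransferase Dot1l and is known to lie over the first part of transcribed genes.

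The PBS list held 11926 peaks over 6.78 Mb and the lysine list 9805 peaks over 5.40 Mb, a ratio of covered length of 0.796, and neither list gives read totals, so the depth is unknown. Peaks lay on 15 of 24 dendritic cell genes in PBS and on 11 in lysine, over 11.7 and 6.81 kb. Of these genes, named after their values were seen, Itgax, Flt3 and Csf2ra bore peaks in both. Covered length was 2442 bp in PBS and 0 in lysine for H2-Ab1, 2478 and 1081 bp for Cd86, and 1385 and 359 bp for Sirpa. Zbtb46, Flt3, Itgam, Itgax, Ciita, Cd80 and H2-Eb1 were also shorter in lysine. The length was longer in lysine for Cd74, 900 and 2134 bp, and for Csf2ra, Irf8, Xcr1, Id2 and Cd40. H2-Aa, Batf3, Irf4, Ccr7, Spi1, Csf2rb, Clec9a and Cd209a had none in either. None of 6 T and NK cell genes, 4 B cell genes and 8 genes of other tissues had a peak in either library. Macrophage and monocyte genes bore PBS peaks in 6 of 8 cases and lysine peaks in 2, over 2.41 and 1.48 kb, and of 6 neutrophil genes 1 and 0 bore one. Fewer cells of a type and less of the mark per cell cannot be told apart in such bulk material, and the part of other cell types in the results below was not tested.

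Sequence around gene starts is shown first, because most of the helicase peaks lay there. RefSeq promoter windows on GRCm38.p6, from 250 bases before to 50 bases after a listed start, were at hand for 47 of the 53 genes. Ddx6, Ddx11, Ddx23, Ddx39a, Dhx38 and Dhx58 had none. The 6 windows printed here belong to Ddx5, with the longest covered length, to Dhx15, Ddx39b, Ddx10 and Ddx56, with the largest differences between the libraries, and to Ddx50, with the highest fold in lysine. They read 5′ to 3′ on the gene's strand, in lower case, and the capitals mark matches on either strand to the GC box core GGGCGG, the CCAAT box, the TATA box TATAAA or the ETS core CCGGAAG. The Ddx39b window (chr17:35241496-35241795, plus strand), the Ddx5 window at a second listed start (chr11:106788858-106789157, minus strand) and the Ddx50 window (chr10:62651169-62651468, minus strand) lay wholly under a peak in both libraries. So did the Ddx10 window (chr9:53248063-53248362, minus strand). Of the 3 Ddx5 windows only 1 is printed. Another (chr11:106788445-106788744) was also wholly covered in both and holds 4 GC box cores, 1 TATA box and no ETS core. The last (chr11:106789136-106789435), covered over 143 bases in PBS and 300 in lysine, holds no ETS core either. The Dhx15 window (chr5:52190497-52190796, minus strand) was covered over 300 bases in PBS and 257 in lysine. The Ddx56 window (chr11:6267680-6267979, minus strand) was wholly covered in PBS and not at all in lysine.
Ddx39b: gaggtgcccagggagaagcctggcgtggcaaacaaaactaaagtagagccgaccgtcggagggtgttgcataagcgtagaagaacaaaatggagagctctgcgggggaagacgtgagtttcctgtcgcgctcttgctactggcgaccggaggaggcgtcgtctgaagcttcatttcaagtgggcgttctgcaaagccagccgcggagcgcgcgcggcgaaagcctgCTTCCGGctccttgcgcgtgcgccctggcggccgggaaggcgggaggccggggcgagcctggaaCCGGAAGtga
Ddx5: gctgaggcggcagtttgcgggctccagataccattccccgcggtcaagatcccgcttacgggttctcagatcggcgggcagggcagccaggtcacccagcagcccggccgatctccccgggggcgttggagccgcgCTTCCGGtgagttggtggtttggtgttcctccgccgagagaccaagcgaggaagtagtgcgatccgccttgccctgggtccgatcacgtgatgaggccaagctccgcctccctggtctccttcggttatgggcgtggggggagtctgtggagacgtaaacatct
Ddx50: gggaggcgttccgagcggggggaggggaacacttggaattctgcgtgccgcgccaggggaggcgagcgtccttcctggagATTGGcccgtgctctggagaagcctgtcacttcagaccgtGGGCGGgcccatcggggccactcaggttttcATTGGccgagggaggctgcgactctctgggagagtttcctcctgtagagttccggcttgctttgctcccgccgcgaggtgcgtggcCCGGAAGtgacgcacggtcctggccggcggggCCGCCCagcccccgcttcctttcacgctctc
Ddx10: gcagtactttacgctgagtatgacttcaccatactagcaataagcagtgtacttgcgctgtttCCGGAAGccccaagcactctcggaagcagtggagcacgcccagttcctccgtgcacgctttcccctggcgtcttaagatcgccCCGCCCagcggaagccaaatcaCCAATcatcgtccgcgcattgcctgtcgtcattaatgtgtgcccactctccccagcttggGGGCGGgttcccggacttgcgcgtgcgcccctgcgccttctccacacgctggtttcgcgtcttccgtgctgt
Dhx15: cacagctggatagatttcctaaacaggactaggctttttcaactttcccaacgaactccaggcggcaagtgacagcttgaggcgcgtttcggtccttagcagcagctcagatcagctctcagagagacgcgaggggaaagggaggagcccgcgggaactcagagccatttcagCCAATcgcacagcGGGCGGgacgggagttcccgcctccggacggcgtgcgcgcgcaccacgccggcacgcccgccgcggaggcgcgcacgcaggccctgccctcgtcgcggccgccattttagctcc
Ddx56: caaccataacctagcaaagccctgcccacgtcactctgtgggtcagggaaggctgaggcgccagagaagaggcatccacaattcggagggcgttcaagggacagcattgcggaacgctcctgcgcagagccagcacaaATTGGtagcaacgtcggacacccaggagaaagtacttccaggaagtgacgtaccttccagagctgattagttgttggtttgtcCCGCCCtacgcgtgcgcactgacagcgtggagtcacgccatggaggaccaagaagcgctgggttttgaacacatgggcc

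These windows are typical of the family in being rich in CpG, with a median of 24 CpG in 300 bases over all 58 listed helicase windows against 13 over the 21263 windows of all protein-coding genes. The ETS core CCGGAAG, the letters recognised by ETS family factors, stood in 21 of the 58 windows (36.2%) and in 11.6% of all windows. The GC box core GGGCGG stood in 58.6% and 46.2%, CCAAT in 44.8% and 38.2%, and TATAAA in 10.3% and 12.6%. Different motifs shared letters in 0 of the helicase windows. Windows whose start lay under a peak in either library differed from those under none. The ETS core stood in 19 of 36 helicase windows under a peak (52.8%) and in 2 of 22 under no peak (9.09%). Over all protein-coding genes the same shares were 24.8% and 6.43%. Ddx39b and Dhx36 each carried the ETS core in 2 places. Median CpG was 25 under a peak and 16 under none in the helicase windows, and 24 and 7 over all genes, so CpG content and the ETS core moved together with the peaks and their part in them was not tested. Several windows of 1 gene overlap, as in Ddx5, Ddx49 and Dhx34, and these matches are a description of letters, not of bound sites.

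Most helicase genes carried a called H3K79me2 peak. A peak covered at least 1 bp of the gene body in 29 of the 53 genes in PBS (54.7%, 95% exact binomial interval 40.4 to 68.4) and in 33 in lysine (62.3%, 47.9 to 75.2). Over all protein-coding genes the share was 34.0% in PBS and 31.4% in lysine. The intervals cover counting error only. A peak was found in both libraries on 24 genes (45.3%, against 26.7% of all genes), in PBS alone on 5 (9.43%, against 7.32%) and in lysine alone on 9 (17.0%, against 4.68%). The remaining 15 had a peak in neither, and H3K79me2 too weak to be called could still be present on them.

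The covered stretches were short, and as a sum they were alike in both libraries. In total 12.3 kb of helicase gene body lay under peaks in PBS and 12.1 kb in lysine, a ratio of 0.985, beside 0.796 over all protein-coding genes. Among genes with a peak, covered length had a median of 317 bp in PBS (140 to 1253) and 268 bp in lysine (43 to 1514). A gene with at least 500 bp covered is called marked here: 8 helicase genes were marked in PBS, where 11.4% of all genes were, and 7 in lysine, where 9.02% were. Of the 53 genes, 3 were marked in both libraries, Ddx5, Ddx50 and Dhx34, beside 1365 of all 21900 protein-coding genes. In at least 1 library 12 were marked, beside 3099 of all 21900. Of the 38 genes with a peak in either library, 20 had a shorter length in lysine (52.6%, against 58.2% of all such genes) and 18 a longer one (47.4%, against 41.5%). It was shorter by at least 500 bp in 3, Ddx39b, Ddx10 and Ddx56 (7.89%, against 11.0%). It was longer by at least 500 bp in 2, Dhx15 and Dhx58 (5.26%, against 4.72%). The median difference over the 38 genes was -7 bp (quartiles -193 and 200), beside -38 bp (-254 and 92) over all genes with a peak in either library. The near equality of the sums did not hold under other choices of peaks: the lysine minus PBS sum of -183 bp became 718 bp at −log10 q ≥ 5 and -1042 bp at a fold of at least 4.

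**Figure D1:**
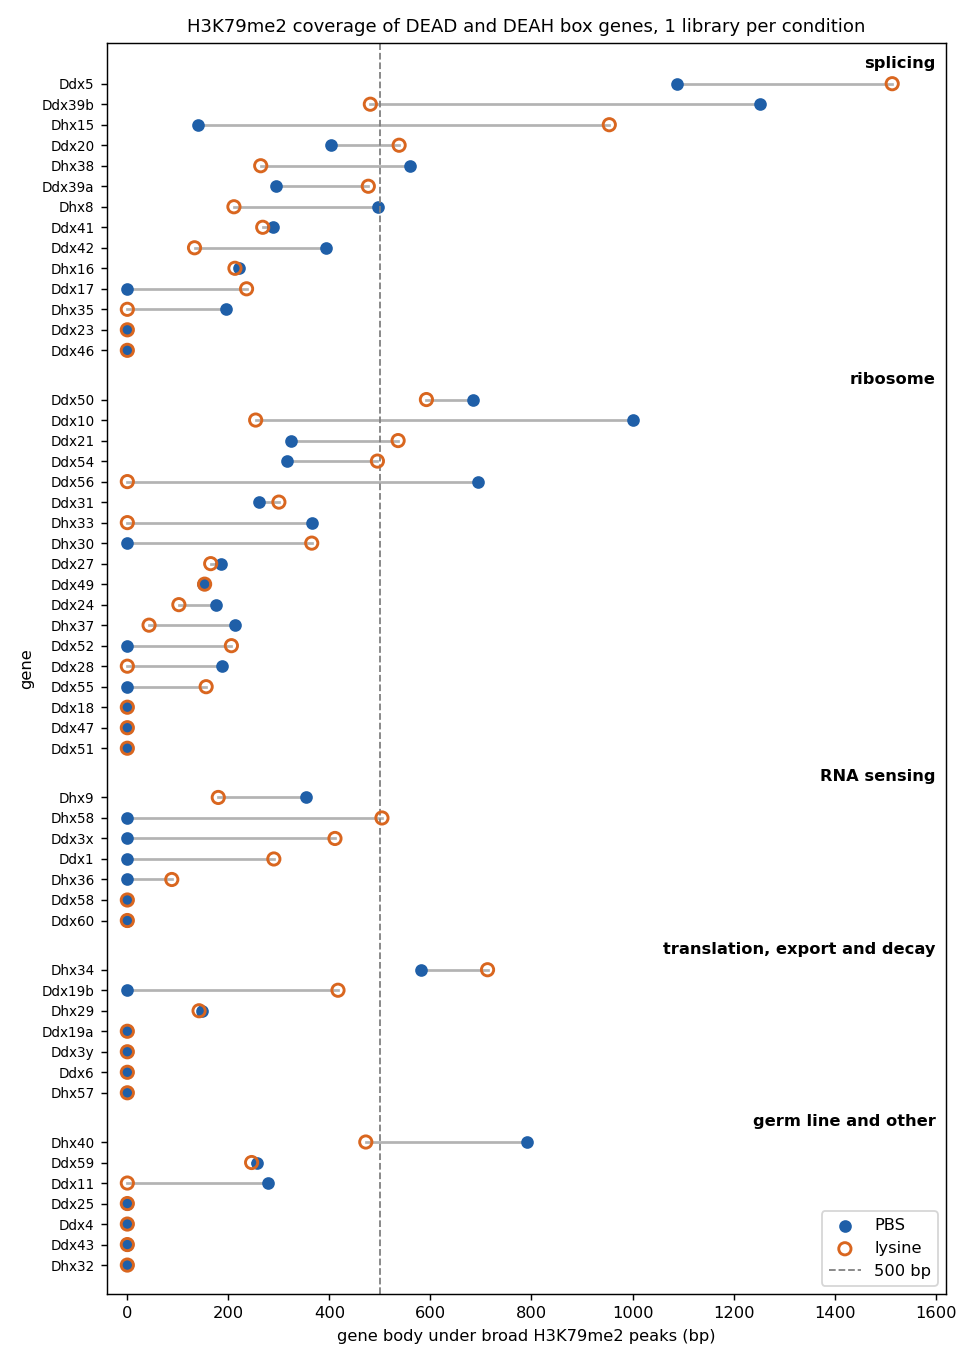
Gene body under broad H3K79me2 peaks (bp, horizontal axis) in the PBS library (filled blue) and the lysine library (open orange) for each of the 53 genes, grouped by known role, with 1 library per condition and a dashed line at 500 bp. Ddx5 reached 1514 bp in lysine, the right-most point, and 15 genes lay at 0 in both libraries.

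The peaks on helicase genes were narrow and of ordinary strength in their lists. There were 34 in each library, with a median width of 463 bp in PBS and 482.5 bp in lysine, beside 468 and 467 bp for all peaks on protein-coding genes. The authors' fold enrichment of these peaks ran from 3.53 to 8.50 in PBS (median 4.75) and from 3.36 to 7.91 in lysine (median 4.60). In each library 25 of the 34 overlapped a peak of the other list by at least 1 bp (73.5%, 55.6 to 87.1), compared with 66.3% of PBS peaks and 78.5% of lysine peaks on all protein-coding genes. Peaks with a partner were the stronger ones within each list, with a median −log10 q of 6.07 in PBS and 5.36 in lysine. The 9 PBS peaks without a partner had a median of 2.42 and the 9 lysine peaks 3.10.

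Most of them lay across the gene's start. Of 47 genes with a listed start, it was under a peak in 25 in PBS (53.2%, against 26.1% of all genes with a listed start) and in 28 in lysine (59.6%, against 24.5%), and in 21 in both (44.7%, against 20.1%). A peak on a helicase start reached a median of 270 bp upstream and 186 bp downstream of it in PBS, and 268 bp and 210 bp in lysine. At listed starts of other protein-coding genes the reach was 311 and 194 bp in PBS, and 303 and 188 bp in lysine. At 500 bp downstream of the first listed start, 4.26% of the helicase genes were still covered in PBS and 6.38% in lysine, and at 2 kb none of the 47 was in either. From the nearest listed start, the longest reach into a gene was that of Ddx39b in PBS, 1252 bp. Dhx15 with 953 bp and Ddx5 with 822 bp followed, both in lysine. Ddx5 has 3 listed starts, and from the one at its gene end the lysine peak covered 1514 bp of the gene. Of the 25 and 28 start peaks, 6 and 6 also covered a listed start of a neighbour, such as Cep95 beside Ddx5, Ccdc47 beside Ddx42, Cope beside Ddx49 and Gtf3c4 beside Ddx31, and such a peak cannot be assigned to either gene.

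**Figure D2:**
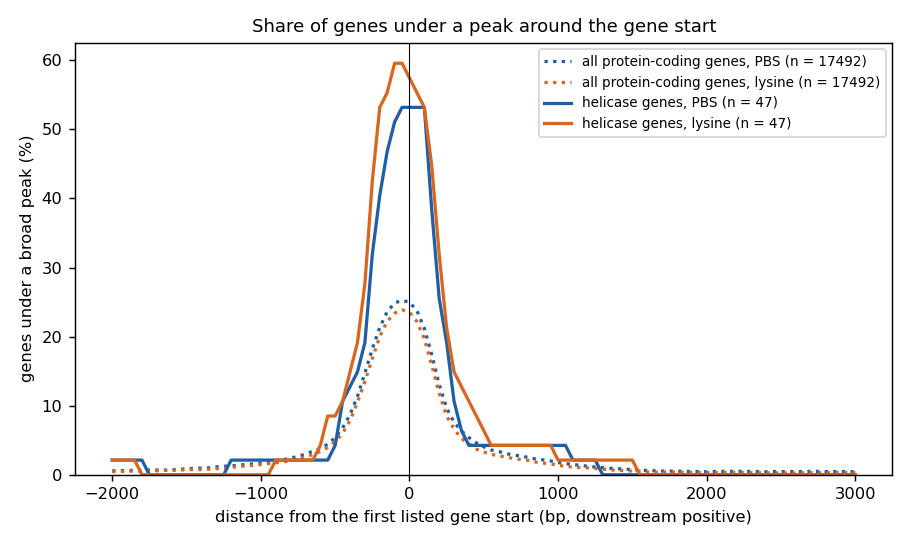
Share of genes (%, vertical axis) under a broad peak at each distance from the first listed gene start (bp, horizontal axis, downstream positive) for 47 helicase genes (solid lines) and 17492 protein-coding genes (dotted lines), PBS in blue and lysine in orange. The helicase lines peak at 53.2% in PBS and 59.6% in lysine close to the start, above 25.3% and 23.9% for all genes, and fall to 4.26% and 6.38% by 500 bp downstream.

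Few peaks lay elsewhere in these genes. In PBS 5 lay off the listed starts, on Ddx10, Dhx8, Dhx33, Dhx34 and Dhx40, each more than 1000 bp away. In lysine there were 3, on Ddx1, Dhx34 and Dhx37, the last only 49 bp upstream of its start. These counts leave out peaks on genes without a listed start, among them the Dhx58 lysine peak and the second Dhx38 PBS peak. Their centres lay 1719 and 1597 bp from the nearer gene end. The peak inside Dhx34 was the exception in being found in both libraries. It lay at chr7:16207488-16207836 in PBS and chr7:16207462-16207891 in lysine, with folds of 5.70 and 5.85 and −log10 q values of 7.30 and 8.90. No other annotated gene lay under it. The internal PBS peaks of Ddx10, Dhx8, Dhx33 and Dhx40 had no lysine partner, and their −log10 q ran from 1.77 to 4.37.

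**Figure D3:**
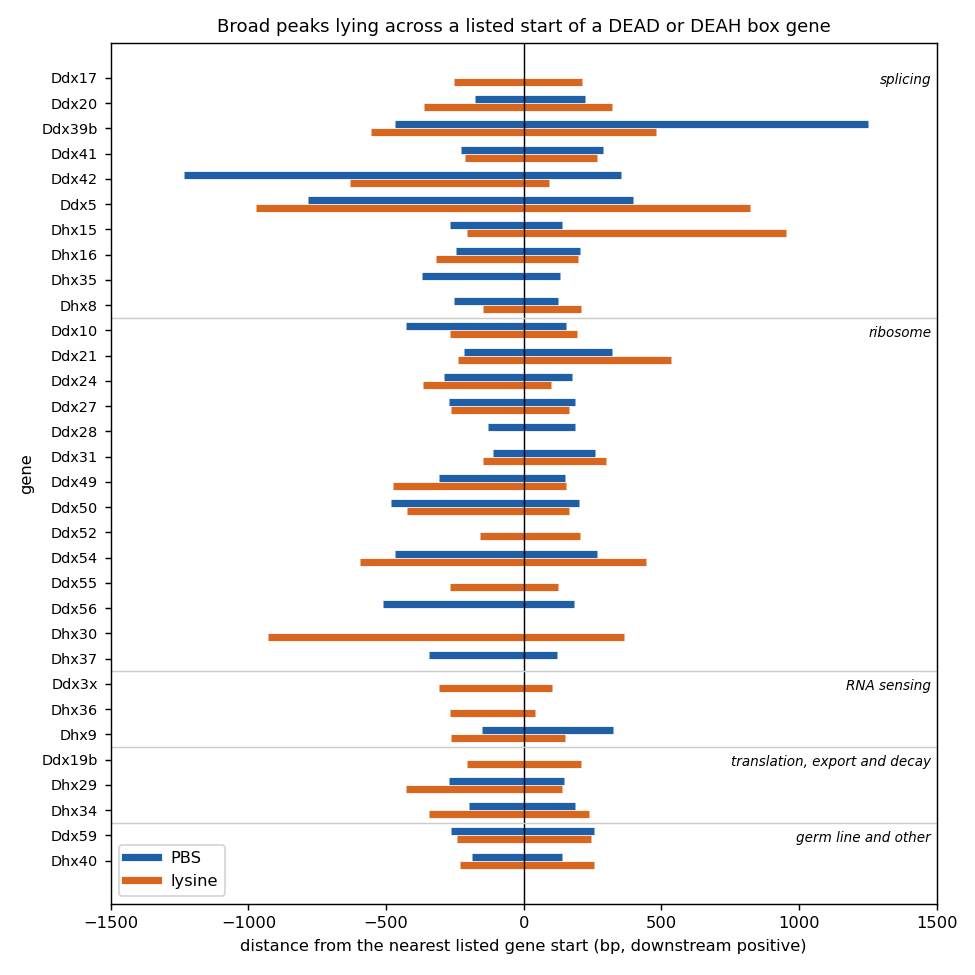
Broad peaks that lie across a listed start of a helicase gene, drawn from their first to their last base relative to the nearest listed start (bp, horizontal axis, downstream positive), PBS in blue and lysine in orange, for 32 genes ordered by known role. Most reach less than 500 bp to each side, and the PBS peak of Ddx39b reaches furthest downstream of the nearest listed start, to 1252 bp.

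The splicing helicases had the highest share of genes with a peak among the role groups, and the same number in both libraries. Peaks lay on 11 of 14 genes in PBS and on 11 in lysine (78.6% in each, against 34.0% and 31.4% of all protein-coding genes). On 10 genes they lay in both (71.4%, against 26.7%). Marked genes numbered 3 and 3 (21.4% in each, against 11.4% and 9.02%). Covered length was 5.33 kb in PBS and 5.29 kb in lysine. It was shorter in lysine in 7 genes (58.3% of those with a peak in either library) and longer in 5 (41.7%). The same shares over all protein-coding genes were 58.2% and 41.5%. The even sum came from large differences in opposite directions, and it did not hold under other choices of peaks: the difference of -45 bp became 1971 bp at −log10 q ≥ 5, -1411 bp where fold ≥ 4 was asked and 237 bp with equal numbers of peaks. Only Ddx23 and Ddx46, helicases of spliceosome assembly before catalysis, had no peak in either library.

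Ddx5, a splicing factor and transcriptional coregulator (chr11:106780355-106789185), had the most covered length of the family in lysine, 1514 bp, against 1088 bp in PBS. It was also the gene with the highest share of its body covered, 17.1% in lysine and 12.3% in PBS. Its peak was 1181 bp wide in PBS (fold 4.59, −log10 q 3.94) and 1797 bp wide in lysine (fold 6.33, −log10 q 8.25), and the PBS peak lay wholly inside the lysine peak. The gene overlaps Cep95. Its paralogue Ddx17 had a 465 bp peak at its start in lysine and none in PBS.

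Ddx39b, an RNA helicase of early spliceosome assembly that also serves mRNA export (chr17:35241746-35253707), showed the largest shortfall of the family. PBS peaks covered 1253 bp of it and lysine peaks 481 bp. The PBS peak (chr17:35241278-35242998, fold 4.57) and the lysine peak (chr17:35241191-35242226, fold 3.90) began close together upstream, and the PBS peak ran on further into the gene. By the narrow blocks of the gapped lists the direction turned, to 214 bp more in lysine. At −log10 q ≥ 5 neither peak was left. Its close relative Ddx39a had 295 bp in PBS and 477 bp in lysine, from peaks of 542 and 764 bp at percentiles 93.0 and 91.5 of their lists by −log10 q.

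Dhx15, which takes spliceosomes apart after splicing (chr5:52150203-52190546), had the largest excess in lysine, where 954 bp were covered against 140 bp in PBS. The lysine peak was wide, 1161 bp, and weak (fold 3.62, −log10 q 2.05), while the PBS peak was narrow, 408 bp, and stronger within its list (fold 5.50, −log10 q 6.07). At −log10 q ≥ 5, at a fold of at least 4 and by narrow blocks the direction turned, by -140, -140 and -30 bp. Ddx20, the helicase of the SMN complex that assembles small nuclear ribonucleoproteins (chr3:105678270-105687788), had 403 and 538 bp. Dhx38, which acts between the catalytic steps of splicing (chr8:109547999-109565861), had 560 and 264 bp. Its PBS peak at one end of the gene had the highest fold of the helicase peaks in PBS, 8.50, and also covered the start of Txnl4b. In lysine that peak had a fold of 5.42, and a weak second PBS peak nearby had no partner.

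The other splicing members had under 500 bp in each library. Ddx41, which also has a reported part in DNA sensing in mouse dendritic cells, had 289 bp in PBS and 268 bp in lysine under strong peaks (fold 7.37 and 6.86, −log10 q 14.7 and 11.1). Dhx8, which releases the spliced mRNA, had 496 and 211 bp. Of its PBS length 372 bp was an internal peak without a lysine partner, and its start peaks covered 124 bp in PBS and 211 bp in lysine. Ddx42, which is associated with the U2 particle, had 394 and 133 bp. Dhx16, needed to activate the assembled spliceosome, had 221 and 213 bp. Dhx35 had 195 bp in PBS and none in lysine.

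Among 46 other core spliceosome genes, 39 bore a PBS peak and 30 a lysine peak (84.8% and 65.2%, against 34.0% and 31.4% of all genes). Lysine had the shorter length in 32 and the longer in 9. Of those with a peak in either library these are 78.0% and 22.0%, against 58.2% and 41.5% of all such genes. Their sum was 13.3 kb in PBS and 9.38 kb in lysine, a ratio of 0.702, beside 0.796 over all protein-coding genes. U2af2, the large subunit of the factor that binds the polypyrimidine tract, had 1814 and 1682 bp, and Sf3b1, the scaffold of the U2 particle, 1555 and 198 bp.

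Ribosome assembly helicases carried the mark about as often in both libraries. Peaks lay on 12 of 18 genes in PBS and on 12 in lysine (66.7% in each, against 34.0% and 31.4% of all protein-coding genes). On 9 genes they lay in both (50%, against 26.7%). Marked genes numbered 3 and 2 (16.7% and 11.1%, against 11.4% and 9.02%). The sum was 4.56 kb in PBS and 3.37 kb in lysine, a ratio of 0.739, near the 0.796 of all protein-coding genes. Lysine had the shorter length in 8 genes (53.3% of those with a peak in either library, against 58.2% of all such genes). It had the longer in 7 (46.7%, against 41.5%), so the lower sum came mainly from Ddx10 and Ddx56. The difference of -1192 bp became -38 bp with equal numbers of peaks and turned to 262 bp more in lysine with gene bodies widened by 1 kb. Ddx18, Ddx47 and Ddx51 had no peak in either library.

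Ddx50 and Ddx21 are neighbouring nucleolar paralogues on chromosome 10 that act in ribosomal RNA synthesis and processing. Ddx50 (chr10:62615792-62658764) had 684 bp in PBS and 592 bp in lysine, under some of the strongest peaks of the family, with folds of 8.29 and 7.91 and −log10 q values of 13.8 and 12.4. Ddx21 (chr10:62580247-62602298) had 323 and 536 bp. Its peak was 538 bp wide with a fold of 5.65 in PBS, and 775 bp wide with a fold of 3.84 in lysine. The difference of Ddx21 turned to -323 bp at −log10 q ≥ 5 and at a fold of at least 4, where only the PBS peak was left.

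Ddx10, needed for small subunit assembly in yeast (chr9:53098454-53248170), had 1001 bp in PBS and 254 bp in lysine. Of the PBS length 788 bp was a weak internal peak (fold 3.53, −log10 q 1.77) at more than 103 kb from the start. The start peaks, with a fold of 6.90 in PBS and 4.58 in lysine, covered less: without the internal peak, at −log10 q ≥ 2, lysine had 41 bp more. Ddx56, a nucleolar helicase of ribosome assembly (chr11:6257545-6269786), had a 695 bp peak in PBS (chr11:6267546-6268240, fold 5.88, −log10 q 7.16) and none in lysine. By −log10 q it was the strongest of the PBS helicase peaks without a lysine partner.

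The remaining ribosome members had under 500 bp in each library. Ddx54 had 317 and 495 bp (PBS and lysine, in this order), and Ddx31 260 and 300 bp. Start peaks covered 186 and 165 bp of Ddx27, 150 and 153 bp of Ddx49, and 176 and 102 bp of Ddx24, all with a −log10 q above 7 in both libraries. Dhx37 had 214 and 43 bp. Dhx33 (366 bp) and Ddx28 (187 bp) had a peak in PBS alone. Dhx30 (365 bp), Ddx52 (206 bp) and Ddx55 (156 bp) had one in lysine alone. Ddx28 and Dhx30 serve the mitochondrial ribosome.

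Among 55 other ribosome biogenesis factors, 43 bore a PBS peak and 39 a lysine peak (78.2% and 70.9%, against 34.0% and 31.4% of all genes). Lysine had the shorter length in 25 and the longer in 21, and the sums were 14.1 and 12.3 kb. Of those with a peak in either library these are 53.2% and 44.7%, beside 58.2% and 41.5% of all such genes. Utp18, a small subunit processome protein, had 597 bp in PBS and 1337 bp in lysine. Fbl, the methyltransferase fibrillarin, had 1308 and 490 bp.

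The RNA-sensing helicases bore peaks on 1 of 7 genes in PBS and on 5 of 7 in lysine. Members were assigned to this group with earlier results of these data known, and the contrast rests on that choice. Ddx41, placed with the splicing members despite its reported part in DNA sensing, bore a peak in both libraries. Ddx21, Dhx15 and Dhx33, also reported as RNA sensors, were placed with the ribosome or splicing members. In PBS and lysine Ddx21 had 323 and 536 bp covered, Dhx15 140 and 954 bp, and Dhx33 366 and 0 bp. Each bore a PBS peak, so counting them here would change the contrast. Shares of the 7 genes with a peak were 14.3% (0.361 to 57.9) and 71.4% (29.0 to 96.3), beside 34.0% and 31.4% of all protein-coding genes. The intervals cover counting error only. Since the same 7 genes were counted in both libraries, they do not compare PBS with lysine. Covered length was 353 bp in PBS and 1473 bp in lysine, longer in lysine in 4 genes and shorter in 1. Of those with a peak in either library these are 80% and 20%, against 41.5% and 58.2% of all such genes. At −log10 q ≥ 2 the number with a peak was 1 in PBS and 3 in lysine, where 32.1% and 28.8% of all genes had one. With fold ≥ 4 required it was 1 and 2, beside 27.9% and 24.9% of all genes. At −log10 q ≥ 5 none of the 7 had a peak in either library, beside 17.0% and 14.3% of all genes.

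Ddx58, which encodes RIG-I, the cytosolic receptor for viral RNA with free 5′ phosphates (chr4:40203777-40239825), had no peak in either library. Ddx60, an antiviral helicase (chr8:61928073-62037704), had none either. Dhx58, which encodes LGP2, the regulator of RIG-I and MDA5 signalling (chr11:100694884-100704271), had 0 bp in PBS and 504 bp in lysine. Its lysine peak, chr11:100702301-100702804, had a fold of 4.19 with −log10 q 3.10 and lay wholly inside the gene.

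Other members of this group act in several processes and are reported as sensors of viral RNA or DNA. Dhx9 had 353 bp in PBS and 180 bp in lysine at its start, with folds of 4.06 and 4.93. Ddx3x, a translation and innate signalling helicase on the X chromosome, had 0 and 411 bp. Ddx1 and Dhx36, reported partners in sensing RNA in mouse dendritic cells, had 0 and 290 bp and 0 and 88 bp. Ddx1 alone of the 3 had its lysine peak away from the start, more than 6 kb into the gene, and that peak was among the weakest of its list (fold 3.36, −log10 q 1.39). The lysine peaks of Ddx3x and Dhx36 had a −log10 q of 2.19 and 1.94.

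Of 30 other genes of the RIG-I-like receptor pathway, 18 bore a PBS peak and 14 a lysine peak. The shares were 60.0% and 46.7%, beside 34.0% and 31.4% of all protein-coding genes. Lysine had the shorter length in 11 and the longer in 8, and the sums were 11.0 and 9.09 kb. Of those with a peak in either library these are 57.9% and 42.1%, near the 58.2% and 41.5% of all such genes. Ifih1, which encodes MDA5 and is a helicase outside the symbol rule, had no peak in either library. Tank, an adaptor of the kinase Tbk1, had 2402 and 2438 bp (PBS first), and the kinase gene Riok3 had 1079 and 1391 bp.

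**Figure D4:**
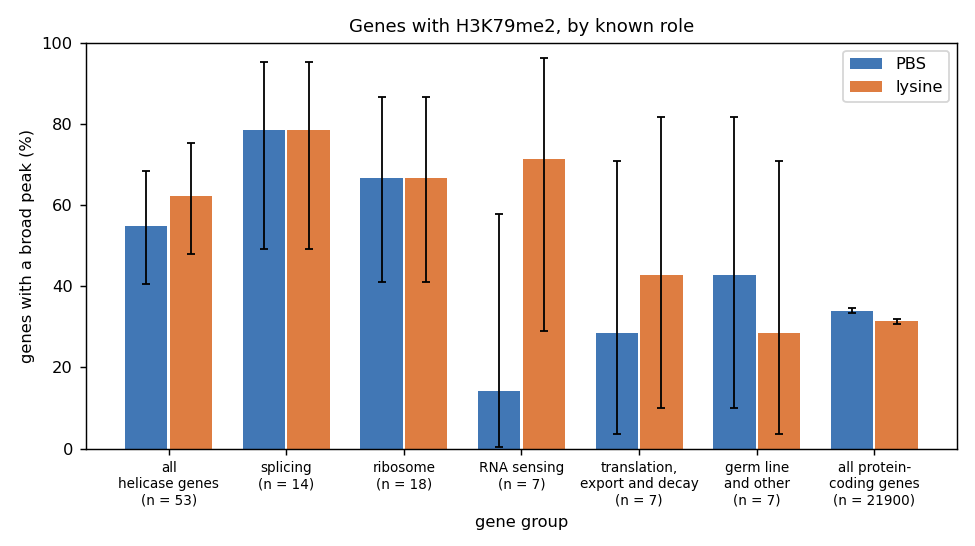
Share of genes with a broad peak over the gene body (%, vertical axis) in PBS (blue) and lysine (orange) for all helicase genes, each role group and all protein-coding genes, with 95% exact binomial intervals as bars of counting error. Splicing members stand at 78.6% in both libraries, and RNA-sensing members at 14.3% in PBS and 71.4% in lysine. The same genes are counted in both libraries, so the intervals do not compare them.

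Helicases of translation, export and decay bore peaks on 2 of 7 genes in PBS (28.6%) and on 3 in lysine (42.9%), near the 34.0% and 31.4% of all protein-coding genes. Dhx34, a factor of nonsense-mediated decay (chr7:16197220-16222078), had 582 bp in PBS and 713 bp in lysine, in a start peak and the internal peak described above. It did not turn under any choice of peaks or gene body tried. Dhx29, which helps initiation on structured mRNA, had 148 and 142 bp. Ddx19b, an mRNA export factor that overlaps Aars, had 417 bp in lysine alone. Ddx6, a central helicase of mRNA repression and decapping, had no peak in either library, nor had Ddx3y, Ddx19a and Dhx57.

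The germ line helicases Ddx4, the mouse Vasa gene, Ddx25 and Ddx43 had no peak in either library, as had 61.3% of all protein-coding genes. In the same group Dhx40 (chr11:86768849-86807877) had 791 bp in PBS and 472 bp in lysine. It had an internal peak in PBS alone, and at a fold of at least 4 only its lysine start peak was left (472 bp). Ddx59 had 257 and 246 bp. Ddx11, a helicase of sister chromatid cohesion, had 278 bp in PBS and none in lysine. Dhx32 had no peak in either.

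Strong peaks were found on fewer members. At −log10 q ≥ 5, 14 helicase genes bore a PBS peak and 13 a lysine peak, 26.4% and 24.5%, beside 17.0% and 14.3% of all protein-coding genes. Both libraries kept a peak on 8: Ddx24, Ddx27, Ddx39a, Ddx41, Ddx49, Ddx50, Dhx34 and Dhx38. PBS alone had 6, Ddx10, Ddx21, Ddx54, Ddx56, Dhx15 and Dhx16, and lysine alone 5, Ddx5, Ddx20, Ddx42, Ddx52 and Dhx29. All of these but Ddx56 and Ddx52 had a weaker peak in the other library. The shares of all genes were 11.0% in both, 5.93% in PBS alone and 3.25% in lysine alone.

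RNA helicases outside the symbol rule had a peak on 11 of 23 genes in each library, over 4.03 kb in PBS and 3.82 kb in lysine. The share was 47.8% in each, beside 34.0% and 31.4% of all protein-coding genes. Eif4a1, the translation initiation helicase and itself a DEAD box protein, had 1464 and 1247 bp, and Supv3l1, a mitochondrial RNA helicase, 459 and 538 bp.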

How the data were processed

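ChIP and input DNA libraries were paired-end, per the labels' protocols. Among the tools listed in the submitters' processing notes are MACS2 2.1.2, Bowtie2 2.3.4.1, Trimmomatic 0.38 and cutadapt 1.18, with the build GRCm38 and no roles. The sources used here give neither thresholds nor the use of inputs. Peaks were deposited per sample. Fold enrichment is the authors' linear ratio of a peak's signal to local background. Significance was deposited as −log10 p and −log10 q, and the deposited score is derived from the latter. These depend on depth, which is unknown, and were used only within a list or as the same minimum in both.

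Groups follow the sample titles. Gene ends were read from the RefSeq annotation of GRCm38.p6 and starts from its promoter table. Covered length is gene body bp under broad peaks, and 10 of the 53 genes overlap another protein-coding gene. It was checked against bedtools 2.31.1 (0 differences) and tested on simulated data. Computations used Python 3.11.15, numpy 2.4.6, pandas 2.3.3, scipy 1.17.1 and matplotlib 3.10.9. Members, roles and gene lists were chosen with earlier results of these data known, and the motifs after the peaks were seen. Genes with at least 500 bp in either library, Ddx58, Dhx58, Ddx60 and Ifih1 were named by rule, with the leading 2 genes of each list. Other members are named so that each is accounted for. One gene was taken out of a list after the analysis, with that list recomputed, and is not reported here. Of 155 list entries all matched a gene, and Mtrex was entered under 2 names.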

Additional observations from a re-analysis of the deposited data

How the results depend on the processing

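No paired analysis was possible because each condition has 1 library. Leaving out a replicate was likewise not possible.

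The lysine minus PBS sum over all members, -183 bp, was 227 bp at −log10 q ≥ 2, 718 at 5, -1042 at fold ≥ 4, 1583 with equal numbers of peaks, 547 by narrow blocks, 1603 with gene bodies widened by 1 kb and -1177 without members that overlap another gene. For splicing members, -45 bp became 1971, -1411, 237, -103, -246 and -628 in the same order from −log10 q ≥ 5 on. For ribosome members, -1192 bp became -404, -1526, -687, -38, -404, 262 and -1186 in the same order from −log10 q ≥ 2 on. For RNA-sensing members, 1120 bp became 742 and 0 at −log10 q ≥ 2 and 5, 331 at fold ≥ 4 and 1453 with widened gene bodies. The causes were not tested.

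At −log10 q ≥ 5, members with a peak numbered 14 in PBS and 13 in lysine, marked members 3 and 4, and members shorter and longer in lysine 11 and 8. Marked members in PBS were 5 at fold ≥ 4 and 5 with equal numbers of peaks. With widened gene bodies 16 and 15 were marked, at a minimum of 200 bp 22 and 24, and at 1000 bp 3 and 1. The number of shared peaks was 25 in each list also when 50% of the shorter peak had to overlap.

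Of the 12 named members with a difference, 5 turned in some setting and 7 in none of those run. Ddx10 turned to 41 bp at −log10 q ≥ 2, at fold ≥ 4, with equal numbers of peaks and by narrow blocks. Ddx21 turned to -323 bp at −log10 q ≥ 5 and at fold ≥ 4, and Dhx15 to -140 bp in both and to -30 bp by narrow blocks. Dhx40 turned to 472 bp at fold ≥ 4 and to 11 bp with equal numbers, and Ddx39b to 214 bp by narrow blocks. Read depth could not be examined, since neither list gives counts.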
